A study of Drosophila melanogaster with 9 samples.

Results

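The genes described here are the mesoderm regulators twi, sna, tin and Mef2 of Drosophila melanogaster and the members of the FGF pathway that acts in the early mesoderm, which are the receptor gene htl, the adaptor gene stumps and the ligand genes ths and pyr. They were chosen by symbol and make up 8 of the 15334 genes in the deposited matrix. All 8 were among the 8346 genes tested, those that averaged 10 or more normalized counts across the 9 libraries. RNA was sequenced from whole embryos of 3 genotypes with 3 libraries each, at 3 h of age, picked by hand at late stage 5 to early stage 6, with about 50 embryos per library. The obe2/Df embryos were the offspring of obe2/Df mothers, and the obe1/obe2 embryos were the offspring of obe1/obe2 mothers. In both cases the fathers were obe2/+, so every embryo had a mother mutant for obe and received obe2 or a wild-type copy from its father. OreR embryos were of the Oregon-R wild-type strain. The gene obe (obelus) encodes a Ski2-family RNA helicase. Df stands for a deficiency in fly nomenclature, and the labels describe neither it nor the lesions.

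In the fly blastoderm, the maternal transcription factor Dorsal enters nuclei in a graded way along the belly-to-back axis. At its highest level it turns on twi and sna, and the ventral cells that express them fold inward at gastrulation to form the mesoderm. The FGF receptor Heartless and its adaptor Stumps are made in mesoderm cells, while the ligands Thisbe and Pyramus are made in the ectoderm. Signalling between these layers makes the mesoderm spread out under the ectoderm. At the stage sampled, twi and sna are normally active, and much of the FGF pathway is only being switched on.

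A normalized count is the number of reads of a gene divided by the size factor that the authors gave the library. Recovered whole reads ranged from 61007517 to 123121486 per library, and 1 read was worth 0.651 to 1.28 normalized counts. The obe RNA itself stood at 234.9 ± 47.8 normalized counts in obe2/Df, 730.5 ± 79.7 in obe1/obe2 and 7056 ± 1381 in OreR (SD, n = 3 each), and the groups did not overlap. The library obe2/Df replicate 1 stood apart. On the first principal component of all tested genes, which held 56.9% of the variance, it lay at 108.5, against 47.5 and 49.8 for the other obe2/Df libraries, 10.5, -32.4 and -15.2 for obe1/obe2 and -61.5, -55.9 and -51.2 for OreR. The labels give RNA isolation in triplicate for each genotype but no separate crosses or collections. The p-values below therefore reflect the spread among these libraries alone, and that spread may be technical.

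In obe2/Df embryos the RNA of twi, sna, tin and pyr fell relative to OreR, and the RNA of Mef2 rose. The mean of twi was 402.6 ± 347 normalized counts in obe2/Df, against 3642 ± 1102 in OreR, which was 9.05 times as much in OreR (SD, n = 3 each). The OreR mean was 7.57 times the obe2/Df mean for sna, 8.93 times for tin and 3.62 times for pyr. For Mef2 the obe2/Df mean was 1.65 times that of OreR. The other FGF genes htl, stumps and ths had lower means in obe2/Df and did not pass the test. Of the 8 genes, 5 were called at a Benjamini-Hochberg adjusted p under 0.05 by limma, 4 lower and 1 higher, beside 60.5% of all tested genes called, 29.5% lower and 31% higher. The share called was thus near that of all tested genes. The libraries of 5 genes did not overlap with those of OreR, 4 lying below and 1 above, beside 70.5% of all tested genes, 34.3% below and 36.2% above. The median log2 fold change of the 8 genes was -2.32, and that of all tested genes was -0.01. In whole embryos, fewer cells of a type and less RNA per cell cannot be told apart.

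twi (FBgn0003900, CG2956, chromosome arm 2R) encodes the basic helix-loop-helix activator that starts the mesoderm programme. Its RNA stood at 9.11, 665.2 and 533.3 normalized counts in obe2/Df replicates 1 to 3, at 1846, 4818 and 1840 in obe1/obe2, and at 4913, 2959 and 3053 in OreR. All 3 obe2/Df libraries lay below all 6 others, and obe2/Df replicate 1 lay far below its own group, while obe1/obe2 and OreR overlapped. The value of obe2/Df replicate 1 came from 14 reads (95% exact Poisson interval 7.65 to 23.5, for counting error only). The log2 fold change, taken on log2(normalized count + 1) here and throughout, was -4.53 ± 1.37 in obe2/Df against OreR (SE, limma adjusted p = 0.0193). Without obe2/Df replicate 1 it was -2.57, with an adjusted p of 0.00242. Without OreR replicate 1 it was -4.29, and the adjusted p of 0.0577 missed the threshold.

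sna (FBgn0003448, CG3956, chromosome arm 2L) encodes the zinc finger repressor that keeps ectodermal genes off in the mesoderm. Its RNA stood at 11.7, 705.0 and 513.0 normalized counts in obe2/Df, at 1848, 4137 and 2402 in obe1/obe2, and at 4049, 2546 and 2710 in OreR. The libraries took nearly the order seen for twi: all of obe2/Df were lowest, obe2/Df replicate 1 (18 reads) by far, and obe1/obe2 replicate 2 was highest. The log2 fold change in obe2/Df against OreR was -4.19 ± 1.29 (limma adjusted p = 0.0204). Without obe2/Df replicate 1 it was -2.33 (adjusted p = 0.00154), and without OreR replicate 1 it was -3.98 (adjusted p = 0.0599).

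**Figure D1:**
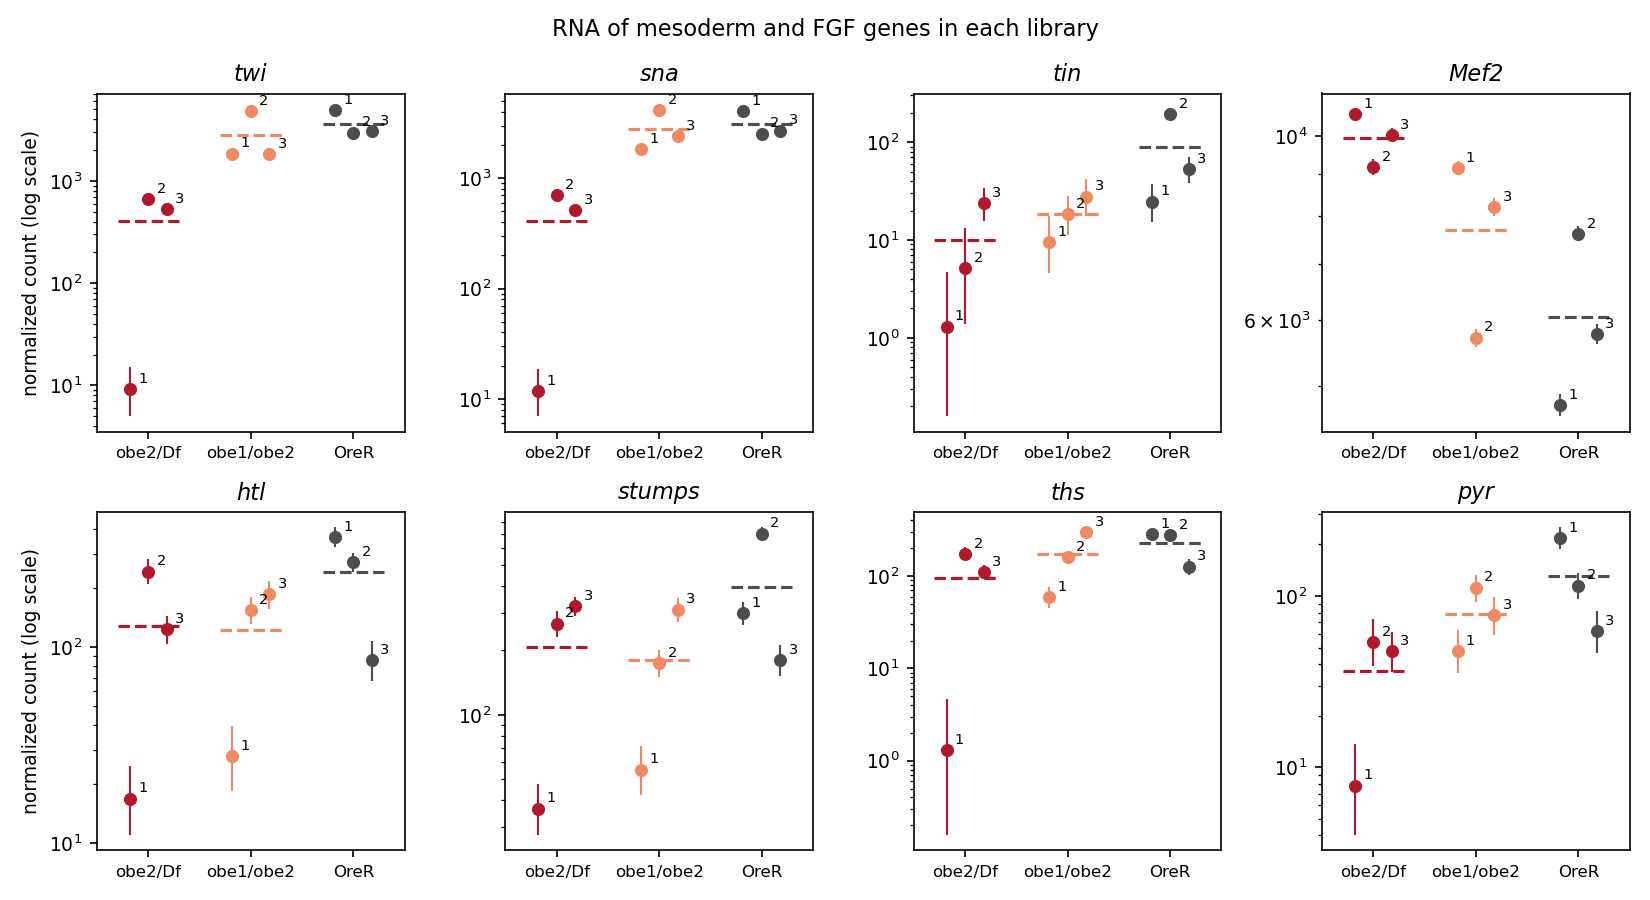
RNA of the 8 genes in each library, in normalized counts on a log axis whose range differs between panels, with the replicate number beside each point. Points are libraries, vertical bars are 95% exact Poisson intervals for counting error, and dashed lines are group means. For 7 genes the lowest point is obe2/Df replicate 1, and for Mef2 that library is the highest at 10620.

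tin (FBgn0004110, CG7895, chromosome arm 3R) encodes a homeodomain factor of the mesoderm that later specifies the heart and visceral muscle. It was the scarcest of the 8 by mean count. Its RNA stood at 1.30, 5.14 and 23.7 normalized counts in obe2/Df, at 9.57, 18.3 and 27.7 in obe1/obe2, and at 24.7, 192.0 and 52.5 in OreR. The obe2/Df libraries all lay below the OreR libraries, but obe2/Df replicate 3 came close to OreR replicate 1. The values of obe2/Df replicates 1 and 2 came from 2 reads (interval 0.242 to 7.22) and 4 reads (1.09 to 10.2). In obe2/Df against OreR the log2 fold change was -3.19 ± 0.97 (limma adjusted p = 0.0196). The call for tin was lost without obe2/Df replicate 1 (-2.38, adjusted p = 0.0583) and without OreR replicate 2 (-2.40, adjusted p = 0.068).

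Mef2 (FBgn0011656, CG1429, chromosome arm 2R) encodes the MADS-box factor that drives muscle differentiation. It moved the other way, and whether its RNA was maternal or newly made was not tested. Its RNA stood at 10620, 9178 and 10033 normalized counts in obe2/Df, at 9156, 5711 and 8212 in obe1/obe2, and at 4735, 7621 and 5769 in OreR. Every obe2/Df library lay above every other library, with obe1/obe2 replicate 1 just under obe2/Df replicate 2, and obe1/obe2 and OreR overlapped. Against OreR, obe2/Df had a log2 fold change of 0.74 ± 0.20 (limma adjusted p = 0.0128), and without obe2/Df replicate 1 it was 0.70 (adjusted p = 0.0366). Mef2 was also the steadiest of the 8 within obe2/Df, where its coefficient of variation was 7.29%, against 68.6% to 119% for the other 7 genes.

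htl (FBgn0010389, CG7223, chromosome arm 3R) encodes the FGF receptor Heartless. Its RNA stood at 16.9, 244.0 and 123.6 normalized counts in obe2/Df, at 27.8, 154.7 and 186.5 in obe1/obe2, and at 366.9, 272.3 and 86.0 in OreR. The groups overlapped: OreR replicate 3 lay below obe2/Df replicates 2 and 3, and replicate 1 was the low library of both obe groups. In obe2/Df against OreR the log2 fold change was -1.33 ± 1.07 (limma adjusted p = 0.298), and without obe2/Df replicate 1 it was -0.24.

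stumps (FBgn0020299, CG31317, chromosome arm 3R) encodes the cytoplasmic adaptor that couples FGF receptors to Ras signalling. Its RNA stood at 36.5, 267.1 and 321.7 normalized counts in obe2/Df, at 55.5, 174.0 and 310.1 in obe1/obe2, and at 298.7, 701.9 and 180.3 in OreR. Its groups overlapped as those of htl did, again with replicate 1 lowest in both obe groups and OreR replicate 3 lowest in OreR. Against OreR, obe2/Df had a log2 fold change of -1.19 ± 0.93 (limma adjusted p = 0.288), and without obe2/Df replicate 1 it was -0.20.

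ths and pyr encode the ligands Thisbe and Pyramus. They lie close together on chromosome arm 2R, with 0 genes between them in the order of the reference annotation. ths (FBgn0033652, CG12443) stood at 1.30, 173.4 and 110.9 normalized counts in obe2/Df, at 59.3, 161.1 and 296.2 in obe1/obe2, and at 282.2, 277.4 and 126.6 in OreR. The obe2/Df and OreR libraries overlapped at 1 point, where obe2/Df replicate 2 lay above OreR replicate 3. The log2 fold change in obe2/Df against OreR was -2.60 ± 1.45 (limma adjusted p = 0.146). Without obe2/Df replicate 1, where ths had 2 reads, it was -0.63 (adjusted p = 0.437). In the authors' deposited table ths was called in this comparison, with a fold of 0.416 and an adjusted p of 0.019.

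pyr (FBgn0033649, CG13194) stood at 7.81, 53.9 and 47.4 normalized counts in obe2/Df, at 47.9, 111.7 and 76.9 in obe1/obe2, and at 217.5, 115.01 and 62.1 in OreR. All obe2/Df libraries lay below all OreR libraries, with obe2/Df replicate 2 only slightly below OreR replicate 3. The log2 fold change in obe2/Df against OreR was -2.03 ± 0.75 (limma adjusted p = 0.0411). This call depended on single libraries: without obe2/Df replicate 1 the log2 fold change was -1.18 (adjusted p = 0.103), without OreR replicate 1 it was -1.58 (adjusted p = 0.137), and the adjusted p was 0.0854 without OreR replicate 2 and 0.0589 without obe1/obe2 replicate 3.

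In the authors' deposited table for obe2/Df, the folds of the genes called lower were 0.111 for twi, 0.132 for sna, 0.112 for tin and 0.277 for pyr, with adjusted p-values of 1.71e-09, 2.28e-08, 1.34e-05 and 0.00433 in that order. The authors' deposited table gave Mef2 a fold of 1.65 with an adjusted p of 0.467, so the rise of Mef2 was not called there.

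In obe1/obe2 embryos 0 of the 8 genes were called by limma, beside 22.6% of all tested genes, 11.7% lower and 11% higher. The libraries of all 8 genes overlapped with those of OreR, beside 37.3% of tested genes whose libraries did not, 20.2% below and 17.1% above. At an unadjusted p under 0.05 the count was also 0 of 8, and edgeR and DESeq2 on the recovered reads called 0 of 8. The change furthest from 0 was that of tin, at -1.83 ± 0.97 (limma adjusted p = 0.206). The authors' deposited table did call tin in obe1/obe2, with a fold of 0.207 and an adjusted p of 0.00277. For the FGF pathway the log2 fold changes were -1.21 ± 0.93 for stumps, -1.13 ± 1.07 for htl, -0.63 ± 0.75 for pyr and -0.60 ± 1.45 for ths. twi and sna were at -0.48 ± 1.37 and -0.20 ± 1.29, and Mef2 was at 0.35 ± 0.20. These standard errors come from the fit of all 9 libraries, so they also carry the spread among the obe2/Df libraries, with replicate 1 far from the others. In this fit a change of 1 log2 unit in any of the 8 genes except Mef2 was not detectable. Without obe2/Df replicate 1, 0 of the 8 genes were called in obe1/obe2 against OreR, beside 20.67% of all tested genes. The median of the 8 genes was -0.61, and that of all tested genes was -0.07.

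Set against each other, the obe groups differed in twi and sna. In obe2/Df against obe1/obe2 the log2 fold change was -4.05 ± 1.37 for twi (limma adjusted p = 0.0398) and -3.99 ± 1.29 for sna (limma adjusted p = 0.0333), and the libraries did not overlap. Thus 2 of 8 genes were called, both lower, beside 44.7% of all tested genes, 19.5% lower and 25.2% higher. Mef2 was higher in every obe2/Df library than in every obe1/obe2 library, but its log2 fold change of 0.40 ± 0.20 did not pass (limma adjusted p = 0.144). With Mef2, 3 of the 8 genes did not overlap between the obe groups, 2 below and 1 above, beside 59.8% of all tested genes, 29.2% below and 30.7% above. For the other 5 genes it was -2.01 ± 1.45 for ths, -1.40 ± 0.75 for pyr, -1.36 ± 0.97 for tin, -0.21 ± 1.07 for htl and 0.03 ± 0.93 for stumps, with adjusted p-values of 0.155 to 0.984. Without obe2/Df replicate 1 the values were -2.09 for twi and -2.13 for sna, and both were still called. Both calls rested on small margins. The twi call was lost without any 1 of the obe1/obe2 or OreR libraries (adjusted p 0.0540 to 0.117), and the sna call without obe1/obe2 replicate 2 (0.0963), obe1/obe2 replicate 3 (0.0775) or OreR replicate 3 (0.0506).

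**Figure D2:**
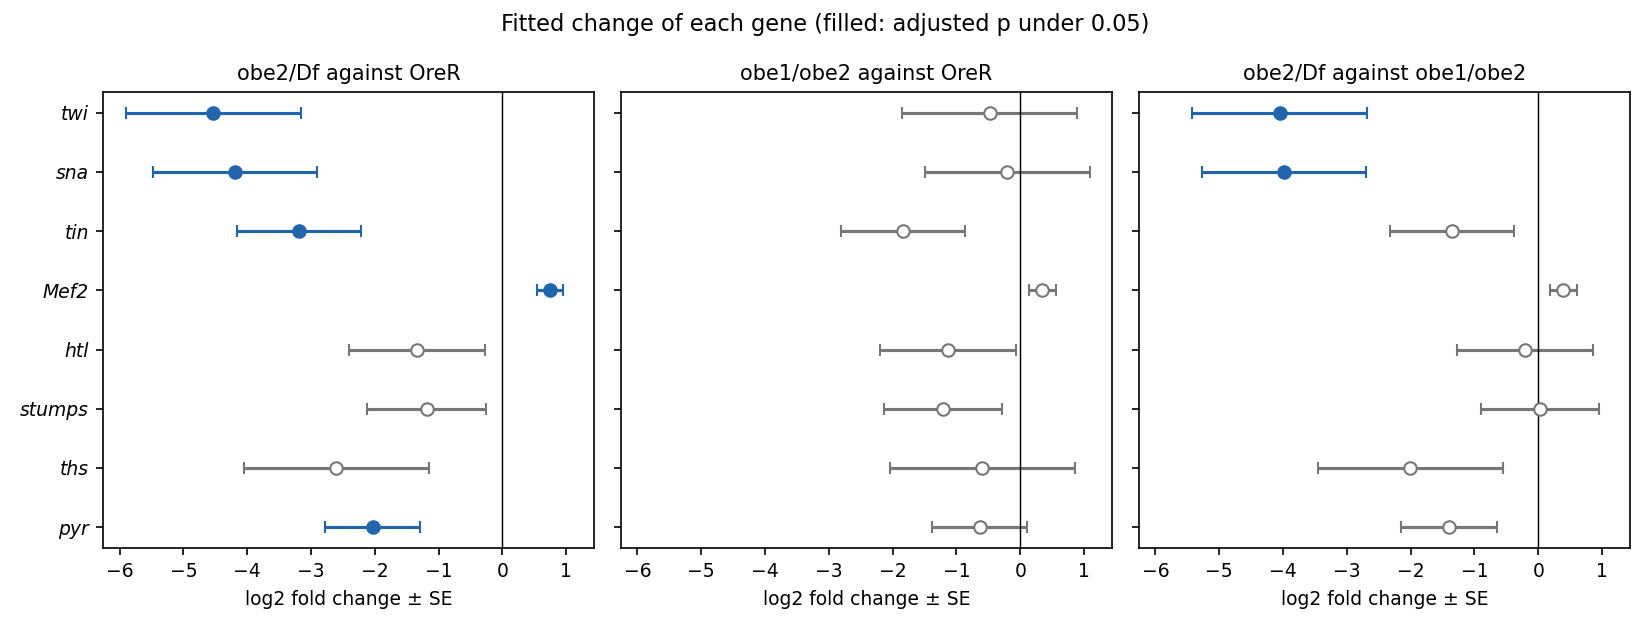
Log2 fold change of each gene in the 3 comparisons from the limma fit, with standard errors as bars. Filled points passed an adjusted p of 0.05 and open points did not. In obe2/Df, twi is at -4.53 and Mef2 at 0.74 against OreR, while all 8 points of obe1/obe2 against OreR are open.

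Ratios of genes within a library do not depend on the size factor. They rise when the second gene falls, and twi and sna fell in obe2/Df. In obe2/Df replicate 1 the ratios rest on few reads except for Mef2: 14 for twi, 18 for sna, 26 for htl, 56 for stumps, 12 for pyr, 2 for tin and 2 for ths. The ratio of twi to sna stayed close to 1 in all 9 libraries: it was 0.778 to 1.04 in obe2/Df, 0.766 to 1.16 in obe1/obe2 and 1.13 to 1.21 in OreR. The ratio to twi separated the obe2/Df libraries for htl, stumps and Mef2 and not for tin. Per 100 counts of twi, htl had 185.7, 36.7 and 23.2 counts in obe2/Df, 1.504, 3.21 and 10.1 in obe1/obe2, and 7.47, 9.20 and 2.82 in OreR. Every obe2/Df library thus had more htl per twi than every other library. The same held for stumps per 100 counts of twi, with 400, 40.2 and 60.3 in obe2/Df, 3.01, 3.61 and 16.8 in obe1/obe2, and 6.08, 23.7 and 5.91 in OreR. Counts of Mef2 per count of twi were 1165, 13.8 and 18.8 in obe2/Df, 4.96, 1.19 and 4.46 in obe1/obe2, and 0.964, 2.58 and 1.89 in OreR. For tin the groups overlapped, with 14.3, 0.772 and 4.44 counts per 100 of twi in obe2/Df, 0.519, 0.380 and 1.51 in obe1/obe2, and 0.503, 6.49 and 1.72 in OreR (exact permutation p = 0.6 in obe2/Df against OreR).

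The ligand genes, set against sna, followed the same direction. Per 100 counts of sna, ths had 11.1, 24.6 and 21.6 counts in obe2/Df, 3.21, 3.89 and 12.3 in obe1/obe2, and 6.97, 10.9 and 4.67 in OreR. The margin for ths was small, since obe2/Df replicate 1 lay just above OreR replicate 2 and below obe1/obe2 replicate 3. pyr ranged over 7.65 to 66.7 per 100 counts of sna in obe2/Df, 2.59 to 3.20 in obe1/obe2 and 2.29 to 5.37 in OreR. Between receptor and adaptor there was no such shift, and htl per count of stumps overlapped in all groups, at 0.384 to 0.913 in obe2/Df, 0.5 to 0.889 in obe1/obe2 and 0.388 to 1.23 in OreR. Between the ligands, ths per count of pyr overlapped as well, at 0.167 to 3.21 in obe2/Df, 1.24 to 3.85 in obe1/obe2 and 1.30 to 2.41 in OreR. In all, 9 ratios were compared with OreR in both obe groups, which made 18 exact permutation tests (two-sided). The ratios of htl and stumps to twi, of ths and pyr to sna, of twi to sna and of Mef2 to twi each gave an exact p of 0.1 in obe2/Df, which is the smallest that 3 against 3 libraries allow, and 0.3 after adjustment over the 18 tests. None of the 18 therefore passed 0.05, nor could it.

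**Figure D3:**
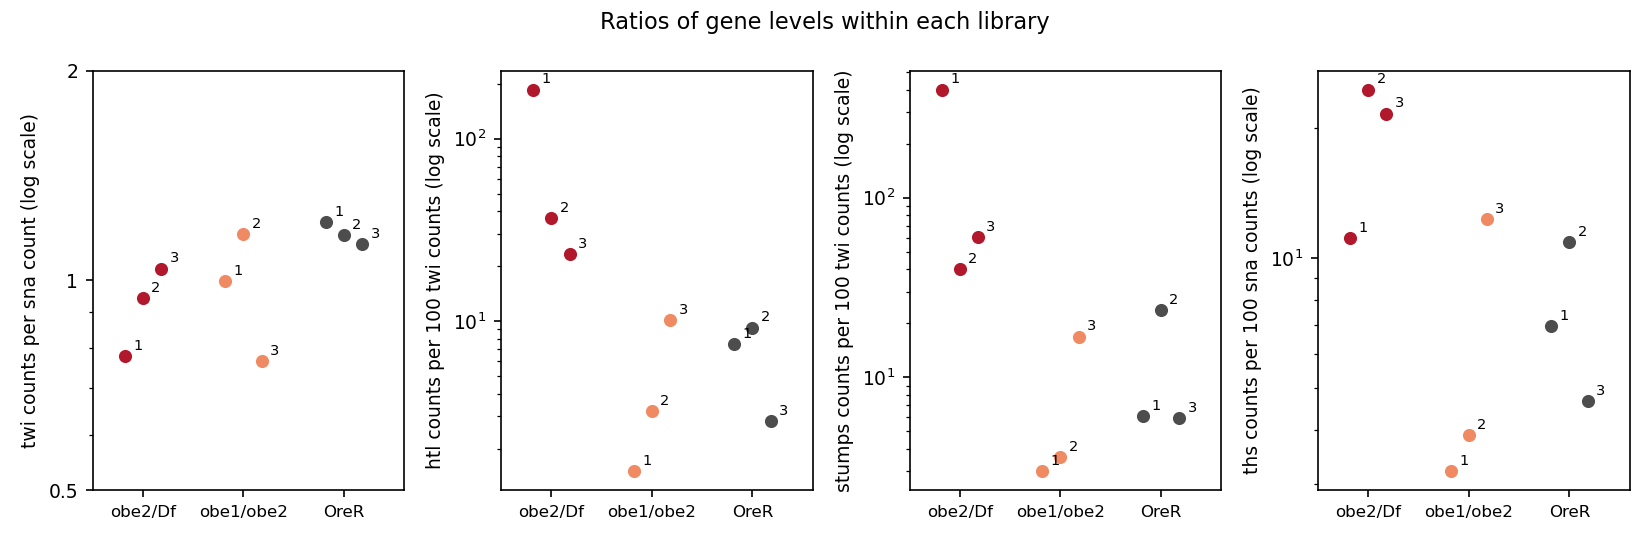
Ratios of counts within each library, on log axes, with the replicate number beside each point: twi per sna, htl and stumps per 100 twi, and ths per 100 sna. The obe2/Df points for htl per twi, 23.2 to 185.7, lie above all points of obe1/obe2 and OreR, while twi per sna stays between 0.766 and 1.21.

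One library carried much of the spread, since obe2/Df replicate 1 was the lowest of the 9 libraries for 7 of the 8 genes. The mean log2 difference of the 8 genes from the OreR mean was -4.66 there, -1.09 and -1.11 in obe2/Df replicates 2 and 3, -1.52, -0.34 and -0.29 in obe1/obe2, and 0.15, 0.41 and -0.56 in OreR. Among markers of stage, the early zygotic genes moved with it and the maternal RNAs did not. For 9 early zygotic genes, among them the cellularization genes nullo, bnk and slam, the same mean was -7.30, -3.05 and -3.51 in obe2/Df, -1.14, 0.25 and -0.97 in obe1/obe2, and 0.39, -0.27 and -0.12 in OreR. All 9 were called lower in obe2/Df against OreR, and in obe1/obe2 replicate 2 they stood near the OreR level. For 14 maternal RNAs, such as osk, nos and bcd, the mean was 0.34, 0.21 and 0.36 in obe2/Df, 0.09, -0.44 and -0.27 in obe1/obe2, and within 0.01 of 0 in OreR. Of these 14, 7 were called higher and 3 lower in obe2/Df, beside 31% and 29.5% of all tested genes. In obe1/obe2, 2 were called higher and 3 lower, beside 11% and 11.7% of all tested genes. Leaving out single libraries moved these counts to 4 to 8 higher and 1 to 2 lower in obe2/Df (4 higher without OreR replicate 3 or obe2/Df replicate 3), and to 0 to 2 higher and 0 to 6 lower in obe1/obe2 (0 lower without OreR replicate 1, 6 without obe1/obe2 replicate 1). Genes of the other germ layers were also called lower in obe2/Df, beside 29.5% of all tested genes. Of 9 neuroectoderm and mesectoderm genes 8 were called lower and 1 higher, with a median log2 fold change of -3.50, but the 8 became 4 when OreR replicate 2 was left out and 5 when OreR replicate 3 was. The 1 higher was lost without any 1 of 5 libraries. Of 13 dorsal ectoderm genes 7 were called lower, with a median of -3.04, and 5 to 9 when a library was left out. In obe1/obe2 against OreR, 0 of the 9 early zygotic genes and 0 of the 13 dorsal ectoderm genes were called. Of the 9 neuroectoderm and mesectoderm genes, 1 was called lower there and 0 higher, beside 11.7% and 11% of all tested genes. That 1 call was lost without any 1 of the OreR libraries. The part of stage in the results for the mesoderm genes was not tested.

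Markers of eggshell, yolk and blood cells were counted as well. The summed counts of 10 eggshell and yolk genes were 42.4 to 60.5 normalized counts in obe2/Df, 22.7 to 45.8 in obe1/obe2 and 19.1 to 31.7 in OreR. In each library 4 to 7 of these 10 were at 0, and the eggshell genes Cp16, Cp19 and Cp38 were at 0 in all 9. Of 4 tested blood cell genes, 1 was called higher in obe2/Df, beside 31% of all tested genes. This was srp (2172 ± 154 normalized counts, against 1280 ± 309 in OreR), a call lost when any 1 of the obe2/Df or OreR libraries was left out. The summed counts of the 6 blood cell genes were 2177 to 2474 in obe2/Df, 1211 to 2681 in obe1/obe2 and 1010 to 1585 in OreR. srp made up most of this sum and is also active outside the blood cell lineage, in the gut and fat body primordia. Hml stood at 0, 2.57 and 339 normalized counts in obe2/Df, against 8.46 to 23.5 in OreR, and was not called by limma, but the authors' deposited table called it with a fold of 7.77 and an adjusted p of 4.74e-05. The part of these markers in the results was not tested.

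Levels of different genes are compared here in RPKM, the read count divided by exon length and by the library's recovered reads (mean ± SD, n = 3 each). In OreR, sna (22.1 ± 5.81) and twi (18.1 ± 5.42) were highest and their ranges overlapped. Mef2 followed at 7.80 ± 1.81, below the range of twi. A gap separated it from stumps (0.829 ± 0.564), htl (0.697 ± 0.409), tin (0.635 ± 0.626), pyr (0.485 ± 0.289) and ths (0.335 ± 0.126), whose neighbours in this order overlapped. In obe2/Df the order began with Mef2 (13.9 ± 0.961), followed by sna (3.18 ± 2.76) and twi (2.18 ± 1.87), and tin was last at 0.079 ± 0.0955. In obe1/obe2 the order of the means at the top was that of OreR, with sna at 20.8 ± 9.10, twi at 14.7 ± 9.11 and Mef2 at 10.3 ± 2.34. The ranges of twi and Mef2 overlapped there. Mef2 lay above twi in obe1/obe2 replicate 1 (12.4 against 9.59) and replicate 3 (10.9 against 9.37), and below it in replicate 2 (7.78 against 25.3). Exons of twi overlap those of CG9897 and of the antisense RNA CR42742, and the kit does not mark strand, so their reads cannot be told apart. Of the 2388 exon bases of twi, 291 are shared on the same strand and 245 on the opposite strand. Both genes are listed at 0 in all 9 libraries. These zeros cannot show that such reads are absent, because reads shared between genes may have been left out of the counts. The effect on the RPKM of twi was not tested.

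The genes whose levels ran most like those of the 8 were sought among 7178 genes by Pearson correlation of log2(normalized count + 1) over the 9 libraries, which share depth and stage differences, so the values are descriptions. The closest to twi were Ilp4 (0.999), which encodes an insulin-like peptide made in the early mesoderm, and CG3502 (0.998), and twi itself correlated with sna at 0.998. The closest to sna were sisA, an early sex determination gene (0.998), and Ilp4 (0.998). tin ran closest to btl (0.953), the FGF receptor gene of the tracheal system, and to Mipp1 (0.931). For Mef2 they were Plc21C (0.994) and SCAR (0.992), an activator of actin branching, and Mef2 correlated negatively with each of the other 7 genes (-0.33 to -0.76). For htl they were Sox14 (0.981) and CG42404 (0.980), for stumps LanB2 (0.976) and Cad74A (0.974), for ths uif (0.988) and trn (0.984), and for pyr CG15628 (0.986) and CG42394 (0.978). htl and stumps correlated at 0.92 with each other, and ths and pyr at 0.92.

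Of 12 further genes of the early mesoderm, 4 were called lower and 1 higher in obe2/Df against OreR, with a median log2 fold change of -2.16. The share called lower was near the 29.5% of all tested genes, and the count ran from 2 without OreR replicate 1 to 7 without obe2/Df replicate 2. The authors' deposited table called more of them lower, adding NetA, Mdr49 and hll (adjusted p-values of 0.00228, 0.00269 and 5.78e-05). The 1 called higher by limma was not called there. The share of all genes called in that table is not given here. wntD, a feedback inhibitor of Dorsal made in the mesoderm, fell by 4.89 ± 1.20 on the log2 scale (limma adjusted p = 0.00771). Ilp4 fell by 4.84 ± 1.47 (limma adjusted p = 0.0194), while the change of Cyp310a1 was -2.48 ± 0.91 (limma adjusted p = 0.0402). In rising order, wntD stood at 0, 30.5 and 41.1 normalized counts in obe2/Df, and Ilp4 at 3.91, 345.4 and 435.3. The size of both falls thus rested in part on a value at or near 0. Their folds in the authors' deposited table were 0.073 and 0.0969. Ady43A fell by 1.84 ± 0.22 in obe2/Df (limma adjusted p = 0.00035) and by 2.32 ± 0.22 in obe1/obe2 (limma adjusted p = 0.000172). In obe1/obe2, beside 11.7% lower and 11% higher of all tested genes, 2 of the 12 were called lower and 1 higher against OreR. Besides Ady43A these were zfh1, a zinc finger and homeodomain repressor of the mesoderm (-0.79, limma adjusted p = 0.0156), and the RNA-binding protein gene how, which was higher (0.27, limma adjusted p = 0.0278). Leaving out OreR replicate 1 ended the call of Ilp4, leaving out OreR replicate 2 or 3 that of zfh1, and the calls of Cyp310a1 and how were each lost without several single libraries. In obe1/obe2 the count called lower was 1 to 4 when a library was left out, with 4 without obe2/Df replicate 1.

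Of 14 genes that carry or restrain the FGF signal between the receptor and the nucleus, 4 were called lower and 3 higher in obe2/Df, with a median log2 fold change of -0.17. These shares were no larger than the 29.5% lower and 31% higher of all tested genes. Sos, the exchange factor that activates Ras, averaged 6154 ± 177 normalized counts in obe2/Df, against 2361 ± 381 in OreR (1.39 ± 0.31, limma adjusted p = 0.00486). Dsor1, which encodes the kinase MEK, was also higher (0.54 ± 0.15, limma adjusted p = 0.0142). Ras85D, the Ras gene, fell by 0.50 ± 0.09 (limma adjusted p = 0.00239), and the ERK kinase gene rl by 0.48 ± 0.08 (limma adjusted p = 0.0018). In obe1/obe2, 3 of the 14 were called lower and 1 higher, beside 11.7% and 11% of all tested genes. Among these pnt, the ETS activator at the end of the pathway, averaged 515.5 ± 94.0 normalized counts in obe1/obe2, against 1107 ± 215 in OreR (-1.10 ± 0.21, limma adjusted p = 0.00651). The kinase scaffold gene ksr rose by 0.46 ± 0.14, and cnk and Raf fell by 0.30 ± 0.09 and 0.26 ± 0.07. Of these 4 calls in obe1/obe2 only that of pnt held in all fits that left out a library. With the replicate block, and also without OreR replicate 3, 1 lower and 0 higher calls were left, and the call of ksr was lost without any 1 of 6 libraries.

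Heparan sulfate is needed for FGF to bind its receptor. Of 6 tested genes for its synthesis and core proteins, 2 were called lower and 1 higher in obe2/Df, beside 29.5% and 31% of all tested genes. trol, which encodes the basement membrane proteoglycan perlecan, averaged 143.7 ± 26.5 normalized counts in obe2/Df, against 17.6 ± 6.05 in OreR (2.99 ± 0.33, limma adjusted p = 0.000255). The enzyme genes ttv and sfl fell by 0.41 ± 0.08 and 0.33 ± 0.09. In obe1/obe2, 1 of the 6 was called lower, beside 11.7% of all tested genes. This was the glypican gene dlp, at -0.23 ± 0.07. The call was lost with the replicate block and without any 1 of the OreR libraries, obe1/obe2 replicate 3 or obe2/Df replicate 2. The tracheal FGF gene bnl was at 0.69 ± 0.58 in obe2/Df and -0.93 ± 0.58 in obe1/obe2 against OreR, and its receptor gene btl at -2.78 ± 1.09 and -1.96 ± 1.09, and neither passed the test (limma adjusted p = 0.0524 to 0.324). In the authors' deposited table btl was called in both, with folds of 0.238 in obe2/Df and 0.208 in obe1/obe2 and adjusted p-values of 0.00206 and 0.00216. The replicate block, and the fits without OreR replicate 1 or obe2/Df replicate 3, also called 1 of the pair lower in obe2/Df.

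Upstream of twi and sna, 4 of 11 genes of the Dorsal pathway and its co-activators were called lower and 3 higher in obe2/Df, with a median log2 fold change of -0.12. This share was about that of all tested genes, of which 60.5% were called. dl, which encodes Dorsal, averaged 11428 ± 1211 normalized counts in obe2/Df, against 4531 ± 393 in OreR (1.33 ± 0.28, limma adjusted p = 0.00418), and its pathway ligand gene spz rose by 0.86 ± 0.20. The protease gene ea, which acts above spz, fell by 1.92 ± 0.11 (limma adjusted p = 1.09e-05). The Twist partner gene da rose by 0.54 ± 0.16. In obe1/obe2, 1 of the 11 was called lower and 1 higher, beside 11.7% and 11% of all tested genes. The lower was ea at -0.48 ± 0.11, and the higher was the early genome activator zld at 0.62 ± 0.19. The call of zld was lost with the replicate block and without any 1 of the obe1/obe2 libraries, OreR replicates 1 and 3 or obe2/Df replicate 2, and that of ea without OreR replicate 1 or obe1/obe2 replicate 3. The call of da in obe2/Df was lost without obe2/Df replicate 1, OreR replicate 1 or OreR replicate 3.

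Genes of the ventral furrow, the fold that brings the mesoderm inside, were called lower in 3 and higher in 2 of 11 cases in obe2/Df, with a median log2 fold change of -0.02, and these shares were below those of all tested genes. T48, which encodes a membrane protein of the furrow cells, rose by 0.72 ± 0.20 in obe2/Df (limma adjusted p = 0.0135), a call lost without OreR replicate 1. The myosin light chain gene sqh fell by 0.43 ± 0.09 in obe2/Df and by 0.42 ± 0.09 in obe1/obe2. Of the 11 furrow genes, 2 were called lower and 0 higher in obe1/obe2, beside 11.7% and 11% of all tested genes. The count called lower was 1 to 3 when a library was left out. Of 16 genes of later mesoderm and muscle, 7 were abundant enough to be tested. In obe2/Df, 1 of these 7 was called higher and 0 lower, beside 31% and 29.5% of all tested genes. It was the cell fusion gene mbc (1.03 ± 0.29), a call lost without OreR replicate 3. In obe1/obe2, where 11% of all tested genes were called higher and 11.7% lower, 1 of the 7 was called higher and 1 lower. The homeodomain gene ap was the higher (2.53 ± 0.51) and rst, a cell adhesion gene of myoblasts, the lower (-3.36 ± 0.43).

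Without obe2/Df replicate 1, 50.25% of all tested genes were called in obe2/Df against OreR. The counts called in that fit were 4 lower and 1 higher of the other early mesoderm genes, 4 lower and 2 higher of the FGF signal genes, 4 lower and 2 higher of the Dorsal pathway, and 2 lower and 2 higher of the furrow genes. They were 9 lower of the early zygotic genes, 7 lower and 0 higher of the neuroectoderm and mesectoderm genes, 6 lower of the dorsal ectoderm genes, and 5 higher and 1 lower of the maternal RNAs. The authors' deposited table did not call Dsor1, Ras85D, rl, ttv, sfl, spz, da, T48, sqh or mbc in obe2/Df, nor pnt, ksr, cnk, Raf, dlp, ea, zld, zfh1, how or sqh in obe1/obe2.

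**Figure D4:**
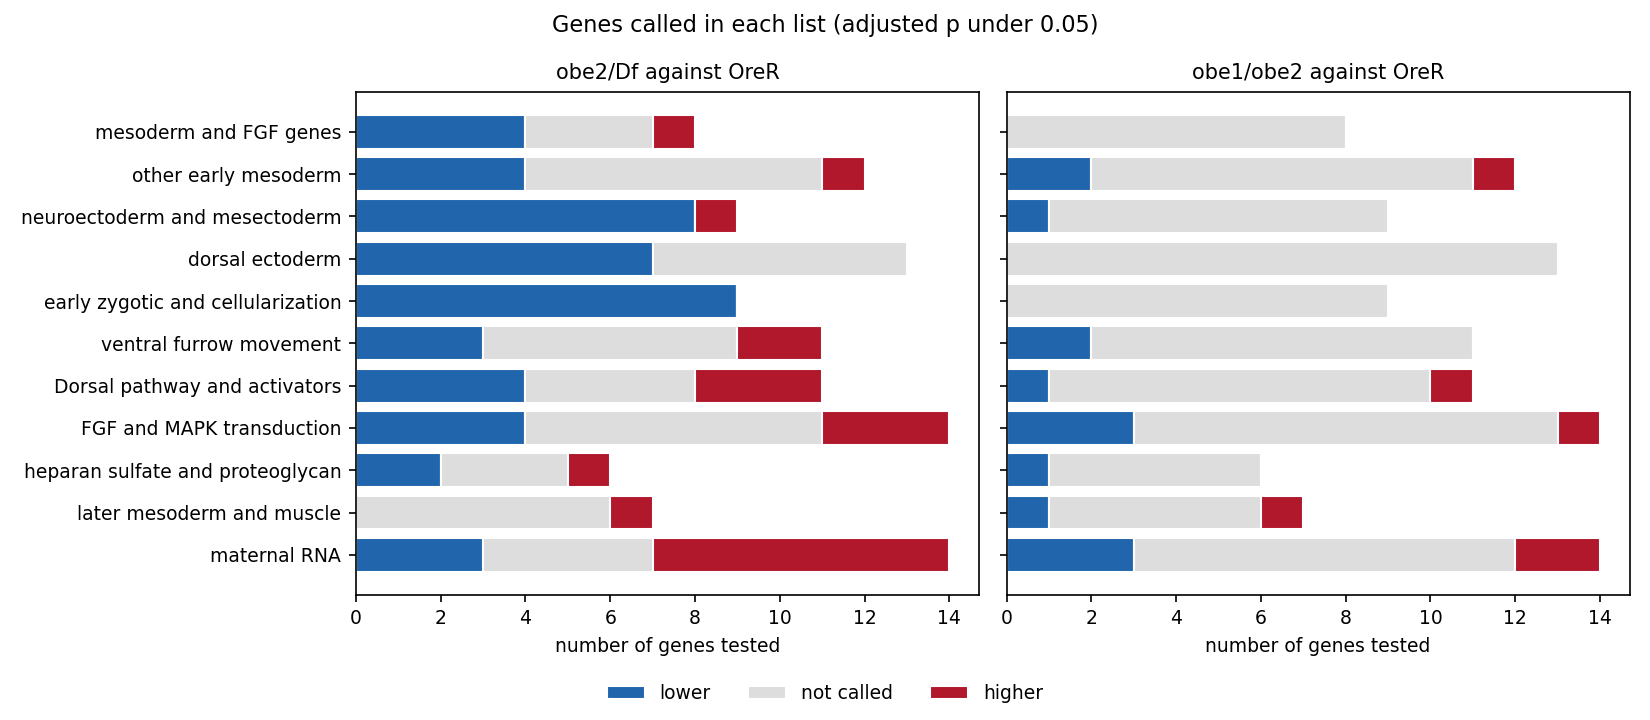
Number of tested genes in each list called lower, not called and called higher at an adjusted p of 0.05, for obe2/Df against OreR on the left and obe1/obe2 against OreR on the right. In obe2/Df the lists with most lower calls are the 9 early zygotic genes, 9 lower, and the 9 neuroectoderm and mesectoderm genes, 8 lower.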

How the data were processed

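RNA was sequenced from 9 libraries of hand-picked embryos, with TruSeq RNA v2 libraries on a HiSeq2500, per the labels' protocols. Per the submitters' processing notes, dm3, STAR, Cufflinks 2.1.1 and Cuffdiff were used, in roles not given, and the gene annotation is not given in the sources used here. Signal values fill the deposited matrix, made by the authors from reads per gene and 1 size factor for each library: 100% of values were whole multiples of 1 read within 0.001 of a read. The authors' deposited tables give a fold, the ratio of group means, and a p-value with its adjusted value.

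Genes averaging 10 or more normalized counts were tested with limma 3.58.1 (R 4.3.3), with a mean-variance trend on log2(normalized count + 1), all 9 libraries in 1 fit and Benjamini-Hochberg adjustment over the 8346 genes. No replicate pair agreed within sampling noise (chi-square per degree of freedom 38.7 to 204). Other settings tried were pseudocounts of 5 and 0.5, a minimum mean of 50 or none, quantile normalization, TMM, array weights, a replicate block, edgeR 4.0.16 and DESeq2 1.42.0 on recovered reads, fits of 6 libraries, the deposited tables and leaving out each library. Scripts were tested on simulated data.

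The 8 genes and the 13 lists (135 symbols, 8 matched by a synonym) were chosen with earlier results of these data known. The text names up to 4 called genes per list and contrast by size of change, and for likeness the 2 genes of highest correlation with a mean of at least 50. Some genes that this rule names are not reported here. Exon lengths and chromosome arms came from Ensembl 115 (BDGP6), a later build than dm3, so no coordinates are given.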

Additional observations from a re-analysis of the deposited data

Results flagged for a closer look

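For twi, the change in obe2/Df against OreR differed from that in obe1/obe2 against OreR. Both changes share the OreR libraries, so the difference is that of obe2/Df against obe1/obe2, at -4.05 on the log2 scale (limma adjusted p = 0.0398), and it was lower in 3 of 3 obe2/Df libraries than in any obe1/obe2 library. Without obe2/Df replicate 1 it was -2.09. The call of twi held in 12 of 20 alternatives and was lost without any 1 of the obe1/obe2 or OreR libraries.

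For sna, the same difference was -3.99 (limma adjusted p = 0.0333), again with 3 of 3 obe2/Df libraries below all of obe1/obe2. Without obe2/Df replicate 1 the difference for sna was -2.13, and its call held in 16 of 20 alternatives. The early zygotic genes moved with both, with a mean log2 difference from the OreR mean of -7.30 to -3.05 in obe2/Df, against -1.14 to 0.25 in obe1/obe2, and their part was not tested.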

How the results depend on the processing

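The count of mesoderm and FGF genes called lower in obe2/Df against OreR was 4, and 1 to 4 when a library was left out: 2 without obe2/Df replicate 1, 1 without OreR replicate 1 and 2 without OreR replicate 2. Over all tested genes the share called in this comparison also fell, from 60.5% to 50.25%, 50.28% and 56.05% in that order. The authors' deposited table called 5 lower, ths being added. The 1 called higher (Mef2) became 0 in the authors' deposited table. In obe1/obe2 against OreR, 1 was called higher with array weights (Mef2) and 1 was called lower in the authors' deposited table (tin). In obe2/Df against obe1/obe2 the 2 called lower became 1 with edgeR, 0 with only the 6 libraries of these groups and 0 to 2 when a library was left out. The share of all tested genes called in that comparison was 44.7%. It was 44.02% with edgeR, 40.14% with the 6 libraries and 30.95% to 48.33% when a library was left out. In obe2/Df against OreR the calls held in 20 of 21 alternatives for twi (-5.59 to -2.57), sna (-5.23 to -2.33) and Mef2 (0.58 to 0.93), in 18 of 20 for tin (-4.10 to -2.38), which had no value at a minimum mean of 50, and in 13 of 21 for pyr (-2.50 to -1.18). The causes were not tested, except that fits without a library or with 6 libraries hold fewer samples.

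Some changes that did not pass the test changed sign. In obe1/obe2 against OreR, sna ranged from -0.53 to 0.06 without a library (0.0553 and 0.0066 among them), and ths was 0.46 with array weights and -1.13 to 0.0243 without a library. In obe2/Df against obe1/obe2, htl was 0.0472 with edgeR, 0.0556 with DESeq2 and -1.06 to 0.89 without a library, and stumps was -0.13 with quantile normalization, -0.46 with array weights and -0.66 to 1.02 without a library.

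The replicate number was tried as a block. Samples of the same number did not deviate together in every pair (correlations -0.20 to -0.01 between obe2/Df and OreR, -0.04 to 0.08 between obe1/obe2 and OreR, and 0.01 to 0.52 between the obe groups). Between the obe groups, libraries of unlike number gave -0.49 to 0.38. With 3 libraries per group, these correlations cannot decide whether the numbers pair the libraries. With the replicate block 3 of the 8 genes were called lower and 1 higher in obe2/Df against OreR, 0 in obe1/obe2 against OreR, and 2 lower in obe2/Df against obe1/obe2. The shares of all tested genes called with the block were 58.16%, 18.94% and 40.38% in that order.

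Over all genes, 1889 were called in obe1/obe2 against OreR and 3451 with array weights. Quantile normalization moved the split: 1129 of 1905 were higher in obe1/obe2 against OreR, beside 916 of 1889, and 1828 of 4217 in obe2/Df against obe1/obe2, beside 2100 of 3730. Counting error was widest in obe2/Df replicate 1 for tin, ths and pyr, with 2, 2 and 12 reads in the library with most reads, 123121486.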
